A study of Mus musculus with 26 samples.

Results

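The serpin genes are a family of protease inhibitors. All genes of the count tables whose symbol begins with Serpin were taken, which gave 63 of 23337 genes. Their levels were compared between mice of the genotype ArKI, a knock-in, and WT littermates. RNA of the initial segment (IS) and of the caput of the epididymis came from 5 ArKI and 5 WT males per tissue and RNA of the testis from 3 ArKI and 3 WT males. All were 3 months old and of a C57Bl/6N; 129 hybrid strain, and ArKI and WT differed in no other allele or treatment that the labels name. By the study's methods both segments were dissected from one set of 5 ArKI and 5 WT animals, and the labels do not tie the sample numbers to single mice. The knock-in is present in every cell of the animal from the start of life. The count tables hold whole frozen tissue, in which fewer cells of a type and less RNA per cell cannot be told apart.

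Most serpins trap serine proteases. The protease cleaves an exposed loop of the serpin, the loop inserts into the body of the serpin, and both proteins stay locked together. Some members have lost this activity and serve as hormone carriers, as a collagen chaperone or as secreted factors. In the male tract they meet proteases of coagulation, fibrinolysis, the complement cascade, the acrosome and the kallikrein family.

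The promoters of 4 members on which the results turn are shown from RefSeq (GRCm38.p6), from 250 bases before to 50 bases after the start of the gene, 5′ to 3′ on the strand of the gene. They belong to *Serpine2* and *Serpinf2*, which had the largest fold changes of the tested members in the caput, to *Serpinf1*, the neighbor of *Serpinf2*, and to *Serpina1f*, the first member of WT caput by level, and were searched for a half-site that steroid receptors bind. This 6-base half-site, AGAACA or TGTTCT on the other strand, is in capitals where it occurs.
Serpine2 promoter, chr1:79858616-79858915, minus strand: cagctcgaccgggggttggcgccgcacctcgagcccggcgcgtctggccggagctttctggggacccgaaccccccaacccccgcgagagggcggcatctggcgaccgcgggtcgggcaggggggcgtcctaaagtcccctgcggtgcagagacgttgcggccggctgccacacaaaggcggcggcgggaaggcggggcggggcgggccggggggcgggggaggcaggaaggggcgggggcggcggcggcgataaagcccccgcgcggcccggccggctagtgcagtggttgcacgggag
Serpinf1 promoter, chr11:75422574-75422873, minus strand: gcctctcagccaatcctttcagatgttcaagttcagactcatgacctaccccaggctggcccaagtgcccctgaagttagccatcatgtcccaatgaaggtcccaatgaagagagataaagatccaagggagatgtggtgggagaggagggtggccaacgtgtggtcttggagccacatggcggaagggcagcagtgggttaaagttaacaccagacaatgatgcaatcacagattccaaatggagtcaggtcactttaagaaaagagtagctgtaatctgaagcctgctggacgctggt
Serpinf2 promoter, chr11:75439452-75439751, minus strand: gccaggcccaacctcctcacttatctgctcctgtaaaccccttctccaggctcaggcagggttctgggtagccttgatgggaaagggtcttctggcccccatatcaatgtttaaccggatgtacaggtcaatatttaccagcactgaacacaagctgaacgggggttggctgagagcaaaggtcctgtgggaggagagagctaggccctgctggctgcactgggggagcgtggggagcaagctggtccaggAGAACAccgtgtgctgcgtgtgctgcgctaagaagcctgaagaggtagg
Serpina1f promoter, chr12:103695480-103695779, minus strand: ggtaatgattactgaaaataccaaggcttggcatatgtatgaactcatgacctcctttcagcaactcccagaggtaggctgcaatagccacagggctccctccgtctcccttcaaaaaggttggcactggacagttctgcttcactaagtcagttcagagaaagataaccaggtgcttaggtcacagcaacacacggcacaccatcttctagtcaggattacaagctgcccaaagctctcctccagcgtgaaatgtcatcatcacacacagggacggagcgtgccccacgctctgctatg
The window of *Serpinf2* held 1 half-site, which began at position 2 after the start, and those of *Serpine2*, *Serpinf1* and *Serpina1f* held none. Half-sites were found in 24 of the 61 windows of 52 serpin genes (39.3%) and in 6233 of 32851 windows of all genes (19%). Several of the serpin windows belong to tandem copies, since *Serpina1a* to *Serpina1e* each held 1 half-site between positions -224 and -162. Windows of *Serpina3a*, *Serpina3b*, *Serpina3c*, *Serpina3f*, *Serpina3i*, *Serpina3j* and *Serpina3n* held half-sites too, and that of *Serpina3g* did not. Both windows of *Serpina3f* overlap and hold the same half-site. The full palindrome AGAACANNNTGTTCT was in 0 serpin windows and in 3 windows of all genes (0.00913%). Such a match describes letters, not binding.

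Libraries held between 5829074 and 9770625 counts in the IS, 4125768 and 11913469 in the caput, and 14077013 and 21376604 in the testis. Summed markers of the initial segment were 40339 to 41777 CPM in WT IS, 14610 to 20972 in WT caput and 354 to 421 in WT testis, and germ cell markers reached 17053 to 20833 CPM in WT testis. All epididymal samples were sequenced in one batch and all testis samples in another, so tissue and batch cannot be told apart there. Values are given as CPM (each library's counts scaled to a common total, with TMM factors from its own batch) with the SD over samples. The replicate of caput ArKI with the lowest depth, replicate 2, stood apart, with fibroblast markers at 1906 CPM in sum against 819 to 1102 in the others of its group and smooth muscle markers at 1424 against 626 to 873. Markers of sperm fell to 36.0 to 96.9 CPM in sum in ArKI caput from 231 to 363 in WT. All 8 genes of that list were called lower there. In the IS the list summed to 10.6 to 71.0 CPM in WT and 2.00 to 6.14 in ArKI mice, with 2 of 2 tested genes called lower. Basal cell markers were 373 to 408 CPM in sum in WT IS and 308 to 328 in ArKI IS, with 2 of 5 past the adjusted p. Mast cell markers were 31.3 to 37.9 in WT testis and 23.5 to 26.8 in ArKI testis. Of their 5 genes only 1 had enough counts to be tested there, and it passed the adjusted p (-0.46). Mast cell markers in the caput were 32.9 to 36.6 in WT and 24.9 to 28.9 in ArKI mice, and the 1 gene tested did not pass (-0.24). Sums that rest on so few genes need not stand for mast cells. Caput markers overlapped between genotypes in each tissue, at 63448 to 77260 in WT and 46217 to 74301 in ArKI caput, as did Sertoli cell markers, at 1111 to 1152 and 1082 to 1231 in the testis. Of the caput list 2 of 5 genes were called lower in the IS and 1 in the caput, and of the Sertoli cell list 1 of 4 tested in each segment. That list summed to 25362 to 30810 CPM in WT caput, above the testis, so in the epididymis it does not mark Sertoli cells. Lymphocyte markers took at most 19.4 CPM and adipose markers at most 26.1 in any sample. The part of these cells in the serpin values was not tested.

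Of the 63 members, 32 reached 10 counts in at least 1 sample, 26 had 1 to 9 counts at most and 5 (*Serpinb11*, *Serpinb3b*, *Serpinb3c*, *Serpinb3d* and *Serpinb9e*) had 0 counts in all 26 samples. The filter on low counts left 24 members in at least 1 comparison, and 12 in each of the 3 tissues. A gene was called where its fold change exceeded 2 and its adjusted p was under 0.01 in the epididymis or under 0.2 in the testis. In the IS 1 of 14 tested members was called higher in ArKI mice and 0 lower, where 4.04% of all genes were called, 2.72% higher and 1.32% lower. In the caput 1 of 15 was called higher and 0 lower, against 4.98% of all genes, 2.43% higher and 2.55% lower. In the testis 2 of 21 were called higher and 0 lower, against 0.833% of all genes, 0.751% higher and 0.0821% lower. Without the fold limit, 3 members passed in the IS, 4 in the caput and 9 in the testis, all of them higher in ArKI mice, against 18.8%, 18% and 5.34% of all genes in either direction. At an unadjusted p below 0.05 there were 8, 8 and 11 members, against 39.7%, 37.7% and 13.1% of all genes. The ArKI and WT samples did not overlap for 3 of 14 members in the IS and 5 of 15 in the caput, or 21.4% and 33.3%, where 20% and 20.2% of all genes did not. With TMM factors from the caput samples alone, a choice made after the data were seen, the caput count was 7 (46.7%, against 20.1%), since *Serping1* and *Serpini1* overlapped by little. The median log2 fold change of the tested members was 0.23 in the IS, 0.16 in the caput and 0.39 in the testis, where that of all genes tested was 0.00, 0.00 and -0.00.

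**Figure D1:**
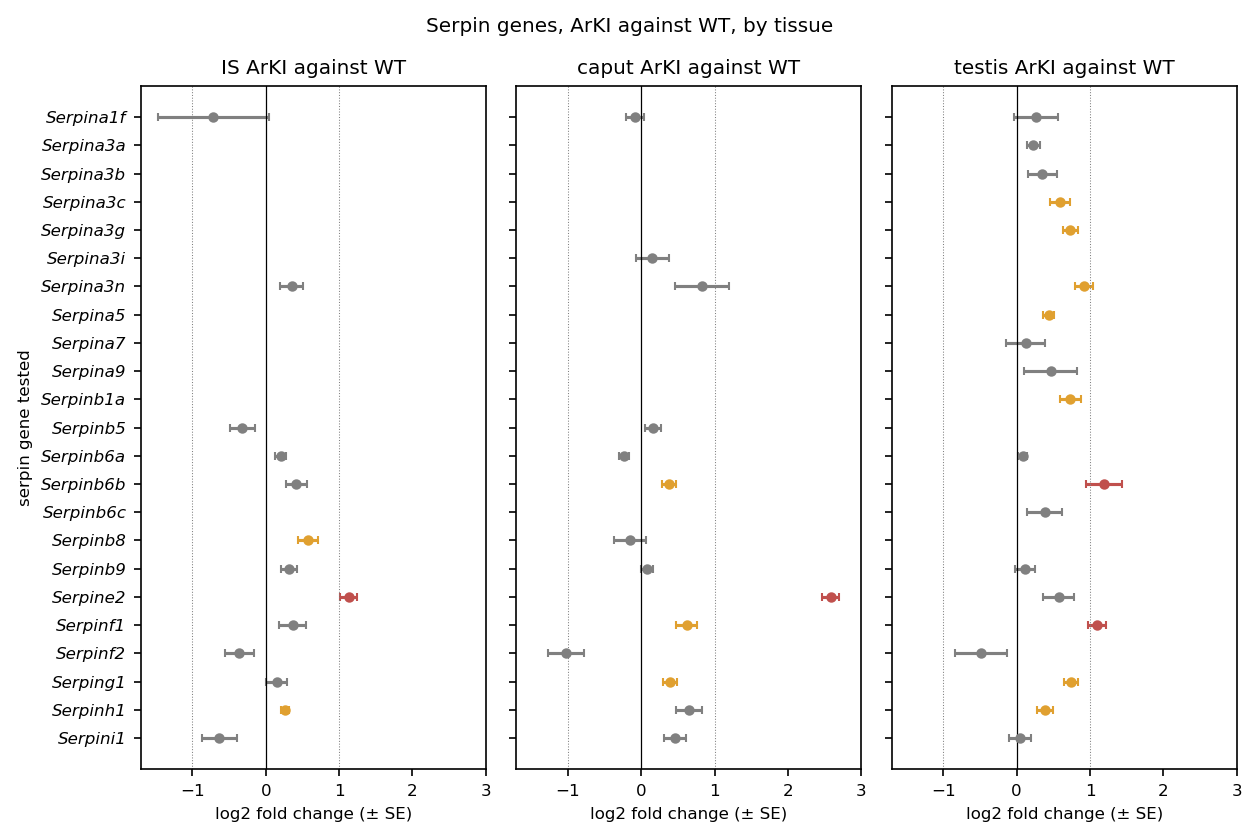
Log2 fold change of ArKI against WT with its SE for the tested serpin genes shown (rows) in the IS, the caput and the testis (columns). Red marks genes past the adjusted p and fold limits, orange those past the adjusted p only, and dotted lines mark a 2-fold change. *Serpine2* stands at 1.13 in the IS and 2.59 in the caput and *Serpinf2* at -1.02 in the caput.

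The members used differed by tissue. Per exon length, *Serpina1f* was first in WT caput with 992 ± 194 RPKM (CPM per kb of exon, SD, n = 5), followed by *Serpinf2* (115 ± 24.6) and *Serping1* (101 ± 10.3), whose values overlapped. In WT IS the order was *Serpinf2* (102 ± 19.9), *Serping1* (85.0 ± 7.84) and *Serpinf1* (22.9 ± 2.47), of which the first pair overlapped within its spread. In WT testis *Serpinb6a* was first with 87.9 ± 2.63 RPKM (n = 3), then *Serpina5* (42.4 ± 3.63) and *Serpina3a* (14.99 ± 1.26), the last beside *Serping1* (14.8 ± 2.18). Summed over all members, serpin genes took 560 to 679 CPM (here without TMM factors) in WT IS and 574 to 749 in ArKI IS. They took 3107 to 4352 in WT caput, of which *Serpina1f* alone gave 76.6% to 85.6%, and 3306 to 4176 in ArKI caput. In the testis the sum was 396 to 435 in WT and 517 to 553 in ArKI, and these ranges did not overlap.

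**Figure D2:**
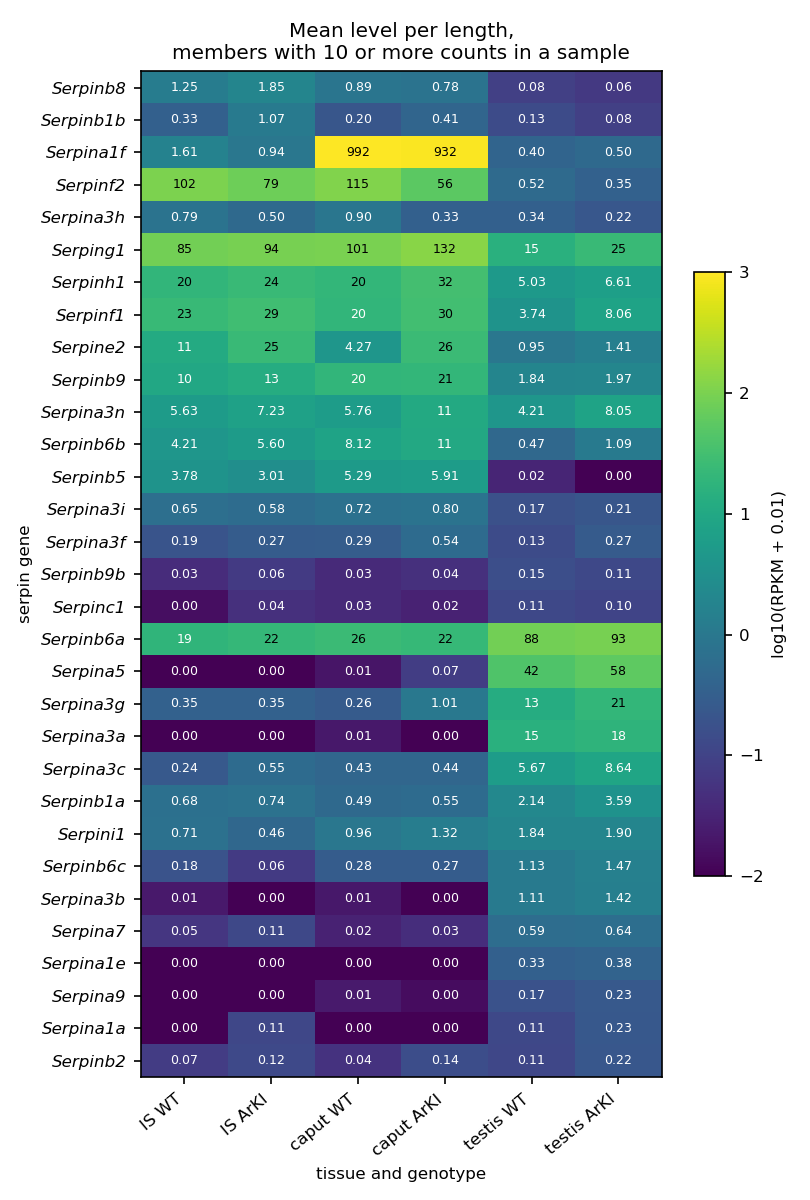
Mean RPKM of serpin genes that reached 10 counts in a sample, by tissue and genotype, printed in each cell and colored by log10(RPKM + 0.01). *Serpina1f* reaches 992 in WT caput and 1.61 in WT IS, and *Serpina5* and *Serpina3a* are near 0 in the epididymis and at 42.4 and 14.99 in WT testis.

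Among inhibitors of thrombin and of the plasminogen system, *Serpine2* showed the largest increase of the members tested in both segments. *Serpine2*, protease nexin 1, lies at chr1:79794317-79858665. In the IS its level was 21.4, 26.3, 27.3, 24.2 and 25.8 CPM in WT and 59.3, 64.9, 59.0, 46.9 and 43.2 CPM in ArKI mice. In the caput it was 8.62, 11.1, 10.9, 7.07 and 9.48 CPM in WT and 53.8, 66.4, 57.3, 61.4 and 46.8 CPM in ArKI mice. No ArKI sample overlapped a WT sample in either segment. The log2 fold change was 1.13 (SE 0.11, adjusted p = 3.5e-06) in the IS and 2.59 (SE 0.12, adjusted p = 8.7e-10) in the caput, in the quasi-likelihood test of edgeR, adjusted by Benjamini-Hochberg. The increase was larger in the caput by 1.45 (SE 0.18, adjusted p = 7.8e-06 for the interaction of segment and genotype). In WT mice *Serpine2* was lower in the caput than in the IS (log2 fold change -1.40, SE 0.14, adjusted p = 9.7e-09), whereas the ArKI means of the segments were 57.1 ± 7.46 and 54.7 ± 9.16 CPM. Without caput ArKI replicate 2 the caput value was 2.54. Summed fibroblast markers were 1065 to 1190 CPM in WT IS and 1152 to 1453 in ArKI IS, and smooth muscle markers 546 to 629 and 237 to 421. Of the fibroblast genes 3 of 5 passed the adjusted p in the IS, with a median log2 fold change of 0.60. All 5 smooth muscle genes passed it, 2 of them called lower, with a median of -0.98. In the caput fibroblast markers were 695 to 771 CPM in WT and 819 to 1906 in ArKI mice, which did not overlap, or 819 to 1102 in ArKI mice without replicate 2. The part of these markers in the changes of *Serpine2* was not tested. In the testis, at 1.71 to 2.59 CPM in WT and 2.60 to 3.45 in ArKI, the groups did not overlap but the gene did not pass (0.58, SE 0.21, adjusted p = 0.21).

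*Serpinf2*, alpha-2-antiplasmin, the main inhibitor of plasmin, was one of the members with the most reads in the epididymis (chr11:75431736-75439501). In the caput it had 174, 267, 283, 310 and 221 CPM in WT and 113, 76.5, 180, 136 and 108 CPM in ArKI mice, with 1 ArKI sample above the lowest WT sample. The log2 fold change was -1.02 (SE 0.24) with an adjusted p of 0.014 by the same test, which missed the threshold. It passed with DESeq2 (adjusted p = 0.00019), with limma on voom values (0.0010) and with all epididymal samples in one fit (0.0024), and also without caput WT replicate 1 (-1.12, 0.0098) or ArKI replicate 3 (-1.20, 0.0054). Over the 10 fits without single samples it ranged from -1.20 to -0.89, with an adjusted p of 0.0054 to 0.037. It was under 2-fold without WT replicate 2, 3 or 4 or ArKI replicate 1, 2 or 5, and nearest to 0 without ArKI replicate 2, the sample that stood apart (-0.89, adjusted p = 0.021). In the IS it had 271, 222, 191, 171 and 262 CPM in WT and 201, 204, 106, 172 and 187 CPM in ArKI mice, which overlapped, and the log2 fold change of -0.36 (SE 0.20, adjusted p = 0.23) did not pass. The difference between the segments was -0.66 (SE 0.32, adjusted p = 0.19). In the testis it was at 9 to 25 counts per sample. *Serpini1*, neuroserpin, an inhibitor of tissue plasminogen activator, had 3.02, 2.52, 3.48, 3.39 and 2.19 CPM in WT IS and 2.11, 1.12, 1.71, 2.39 and 2.01 CPM in ArKI IS. In the caput it had 4.003, 3.82, 3.74, 4.39 and 3.75 CPM in WT and 5.43, 5.07, 6.56, 5.55 and 4.37 CPM in ArKI mice. The values were thus on the lower side in ArKI IS and on the higher side in ArKI caput, but the effect passed in neither segment by itself (-0.63, adjusted p = 0.053, and 0.46, adjusted p = 0.032). The difference between the effects did pass (1.09, SE 0.27, adjusted p = 0.0053). This test treats the 20 samples as independent although the segments share mice, and with the replicate number as a block *Serpini1* no longer passed (1.06, adjusted p = 0.013). At 8 to 28 counts per IS sample it rests on few reads, and it was lost in 9 of the 20 fits that left out 1 sample (adjusted p 0.010 to 0.015), those without IS WT replicate 1, 3 or 4, IS ArKI replicate 2, caput WT replicate 2, 3 or 5, or caput ArKI replicate 3 or 4.

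Across both segments 3 of 17 tested members passed the test of the interaction (adjusted p under 0.01, with no fold limit), 2 with a higher and 1 with a lower effect in the caput, where 8.18% of all genes did, 3.95% higher and 4.23% lower. At an unadjusted p below 0.05 there were 7, against 27.8%. *Serpinb6a*, a clade B inhibitor inside cells, was the third. It had 42.6, 39.8, 37.9, 33.7 and 34.4 CPM in WT IS and 42.9, 50.2, 44.1, 39.4 and 39.9 CPM in ArKI IS. In the caput it had 53.0, 55.8, 50.4, 52.2 and 49.8 CPM in WT and 39.9, 46.1, 46.8, 49.8 and 39.4 CPM in ArKI mice. The groups overlapped in both segments, and neither effect passed (0.20, adjusted p = 0.061, and -0.23, adjusted p = 0.017). The difference of -0.44 (SE 0.11, adjusted p = 0.0061) passed, and was lost in 7 of the 20 fits without 1 sample (adjusted p 0.012 to 0.014), those without IS WT replicate 4 or 5, IS ArKI replicate 2 or 3, caput WT replicate 2, or caput ArKI replicate 1 or 5.

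**Figure D3:**
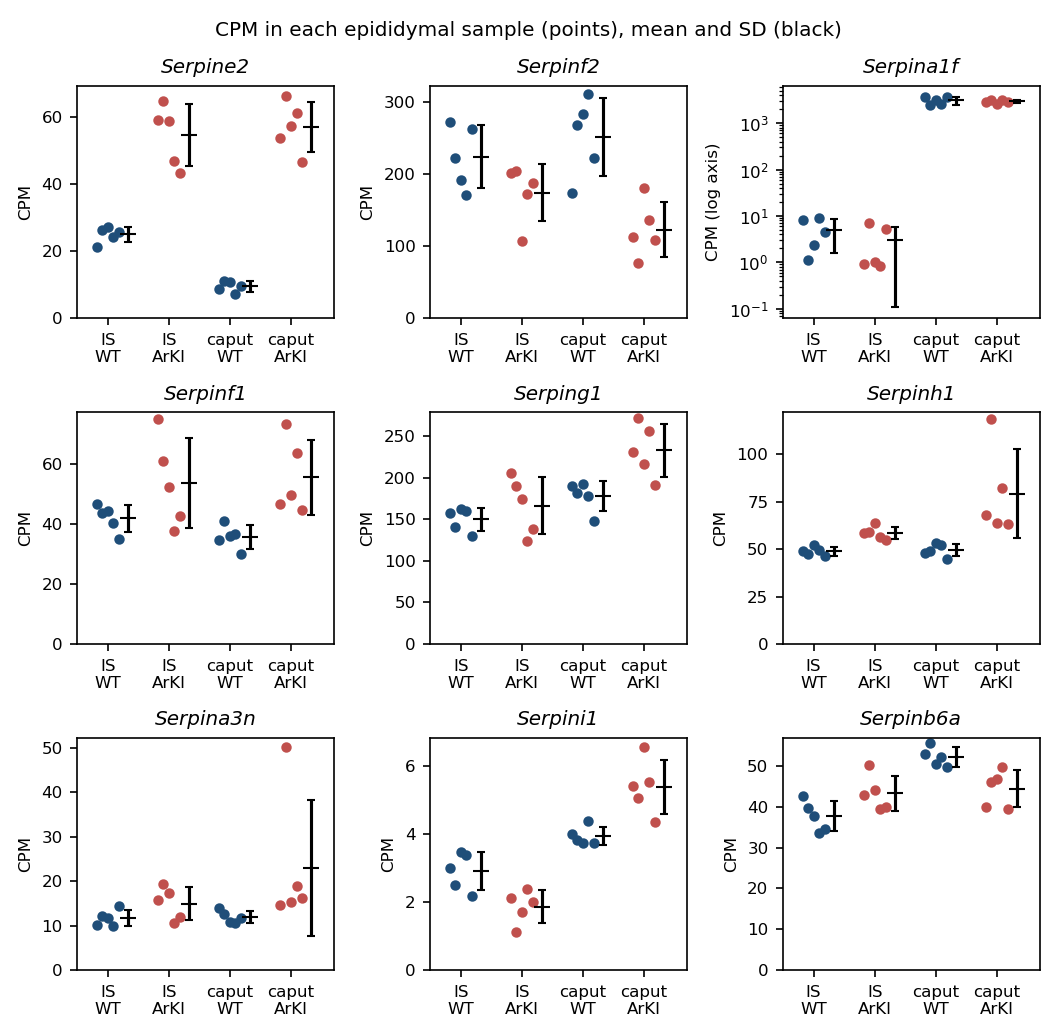
CPM of 9 serpin genes in every epididymal sample (points, WT blue and ArKI red), with the mean and SD beside them. *Serpine2* in the caput goes from 7.07 to 11.1 CPM in WT to 46.8 to 66.4 in ArKI mice. The axis of *Serpina1f* is logarithmic.

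The inhibitor of the classical complement pathway and one of the members that do not inhibit proteases passed the adjusted p in the caput, both higher in ArKI mice and both under the fold limit. *Serping1*, the C1 inhibitor (chr2:84765360-84775444), had 190, 181, 193, 179 and 147 CPM in WT caput and 231, 272, 216, 257 and 191 CPM in ArKI caput. It passed the adjusted p but not the fold limit (log2 fold change 0.39, SE 0.10, adjusted p = 0.0099), and without single samples the adjusted p ranged from 0.0011 to 0.026. It was over the threshold with all 20 epididymal samples in one fit (0.029), with no filter beyond 1 count (0.0107) and with 10 counts in every sample (0.0111). In the IS it had 158, 141, 162, 160 and 130 CPM in WT and 205, 190, 175, 124 and 138 in ArKI mice, which overlapped (0.15, adjusted p = 0.49). *Serpinf1*, pigment epithelium-derived factor, lies beside *Serpinf2* at chr11:75410029-75422623. Its values were 34.8, 41.1, 36.0, 36.7 and 30.1 CPM in WT caput and 46.5, 73.5, 49.6, 63.8 and 44.7 CPM in ArKI caput, which did not overlap (0.62, SE 0.14, adjusted p = 0.0086). Without single samples its adjusted p ranged from 0.0034 to 0.022, and it was 0.016 with no filter beyond 1 count and 0.012 with all 20 epididymal samples in one fit, over the threshold in both. In the IS they were 46.6, 43.6, 44.2, 40.3 and 34.9 CPM in WT and 75.1, 61.1, 52.4, 37.6 and 42.5 CPM in ArKI mice (0.37, adjusted p = 0.18). *Serpinh1*, which folds collagen in the endoplasmic reticulum, passed the adjusted p in the IS, at 46.2 to 52.3 CPM in WT and 54.9 to 63.8 in ArKI mice (0.26, SE 0.06, adjusted p = 0.0018), but not with all 20 epididymal samples in one fit (adjusted p = 0.14). In the caput it was at 44.8 to 53.2 CPM in WT and 63.4 to 118 in ArKI mice (0.65, adjusted p = 0.020). Without caput ArKI replicate 2, which held the 118, its value was 0.50 with an adjusted p of 8.5e-05. Over the fits without single samples its adjusted p in the caput reached 0.048. Over the 10 alternative settings, DESeq2 and limma among them, it was 4.8e-05 to 0.028. The summed fibroblast markers were 695 to 771 CPM in WT caput and 819 to 1906 in ArKI caput, with 1 of 5 genes past the adjusted p and a median log2 fold change of 0.44. In the IS these markers were 1065 to 1190 CPM in WT and 1152 to 1453 in ArKI mice. There 3 of 5 genes passed, with a median of 0.60. The part of fibroblast markers in these differences was not tested.

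Clade A, the relatives of alpha-1-antitrypsin, differed by tissue. *Serpina1f* (chr12:103688044-103695529) had 3726, 2429, 3134, 2618 and 3754 CPM in WT caput but 8.32, 1.14, 2.36, 9.05 and 4.59 CPM in WT IS, a log2 difference of 9.29 (SE 0.49, adjusted p = 2.0e-11). Between genotypes it did not pass in the caput, with 2867, 3148, 2599, 3224 and 2884 CPM in ArKI mice within the range of WT (-0.09, SE 0.13, adjusted p = 0.68). In the IS, where ArKI samples had 0.853 to 6.89 CPM, the value was -0.71 (SE 0.75, adjusted p = 0.54). Its neighbors *Serpina1a* to *Serpina1e* had at most 5 counts in any IS sample. Between the WT segments 1 of 17 tested members was called higher in the caput, *Serpina1f*, and 1 lower, *Serpine2*, where 21.6% of all genes were called, 11.4% higher and 10.2% lower. Without the fold limit 6 members passed, 5 of them higher in the caput, against 60.3% of all genes, and the segments did not overlap for 6 of 17 members (35.3%), against 56.6% of all genes, or 56.8% with TMM factors from the WT samples alone. At an unadjusted p below 0.05 there were 8 members, against 71.4%.

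In the testis another run of clade A genes was used. *Serpina5*, protein C inhibitor (chr12:104099313-104106138), had 92.9, 99.0 and 83.4 CPM in WT testis and 129, 114 and 130 CPM in ArKI testis. It had 0 counts in all 10 IS samples, where 3 counts, the smallest signal taken as detectable, would be 0.307 to 0.515 CPM (counting error only), and 0 to 3 counts in caput samples. *Serpina3a* (chr12:104112724-104121896), its neighbor, had 30.003, 28.4 and 25.4 CPM in WT and 32.5, 29.95 and 36.0 CPM in ArKI testis, and 0 or 1 count in every epididymal sample. The testis groups of *Serpina5* did not overlap and it passed the adjusted p (0.44, SE 0.07, adjusted p = 0.00092), while *Serpina3a* did not (0.23, adjusted p = 0.27). *Serpina3n* and *Serpina3g*, relatives of antichymotrypsin, passed the adjusted p with 0.92 (SE 0.12, adjusted p = 5.2e-05; 1.00 and 1.01, over the fold limit, without WT replicate 3 or ArKI replicate 2) and 0.73 (SE 0.10, adjusted p = 8.9e-05), and *Serpina3c* with 0.59 (adjusted p = 0.026). Their levels were 7.40 to 9.70 CPM in WT and 14.7 to 18.8 in ArKI testis for *Serpina3n*, 19.04 to 26.6 and 35.4 to 39.7 for *Serpina3g*, and 10.3 to 16.3 and 17.8 to 20.3 for *Serpina3c*. Of the 50-base windows of the transcripts of *Serpina3g*, 15.9% also occur in another gene. Only uniquely mapped reads were counted, so reads from such windows can be missing from its level.

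Genes called in the testis were *Serpinf1* and *Serpinb6b*. *Serpinf1* had 6.72, 6.75 and 7.06 CPM in WT and 17.0, 13.0 and 14.3 CPM in ArKI testis (1.10, SE 0.12, adjusted p = 4.8e-06), and 0.99 without ArKI replicate 1, which is under the fold limit. *Serpinb6b* (chr13:32956811-32979067), a clade B relative of *Serpinb6a*, had 1.02, 1.08 and 0.998 CPM in WT and 2.76, 2.26 and 2.14 CPM in ArKI testis, from 14 to 17 and 37 to 48 counts (1.20, SE 0.24, adjusted p = 0.0070). In both genes every ArKI sample lay above every WT sample. *Serping1* was at 28.2, 28.6 and 21.7 CPM in WT and 46.5, 44.0 and 41.5 CPM in ArKI testis (0.75, adjusted p = 3.3e-05), and *Serpinb1a*, an inhibitor of neutrophil proteases, and *Serpinh1* also passed (0.73 and 0.39, adjusted p = 0.0050 and 0.069), at 3.78 to 4.32 CPM in WT and 6.40 to 7.22 in ArKI testis, and at 11.8 to 13.003 and 13.9 to 17.99. *Serpinb6a*, the highest member of the testis, had 170, 179 and 180 CPM in WT and 181, 190 and 189 CPM in ArKI testis (0.08, SE 0.06, adjusted p = 0.60). In all, 13 of 21 tested members had groups that did not overlap (61.9%), against 17.8% of all genes. Summed markers of Leydig cells were 546 to 695 CPM in WT and 847 to 924 in ArKI testis with 2 of 5 genes past the adjusted p, those of macrophages 90.0 to 92.2 and 99.8 to 105 with 2 of 8, and those of fibroblasts 105 to 118 and 137 to 146 with 2 of 5. Summed markers of the initial segment of the epididymis were 354 to 421 CPM in WT and 1181 to 1372 in ArKI testis, with 1 of 5 genes past the adjusted p and called higher and a median log2 fold change of -0.11. Their part in the serpin values was not tested.

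**Figure D4:**
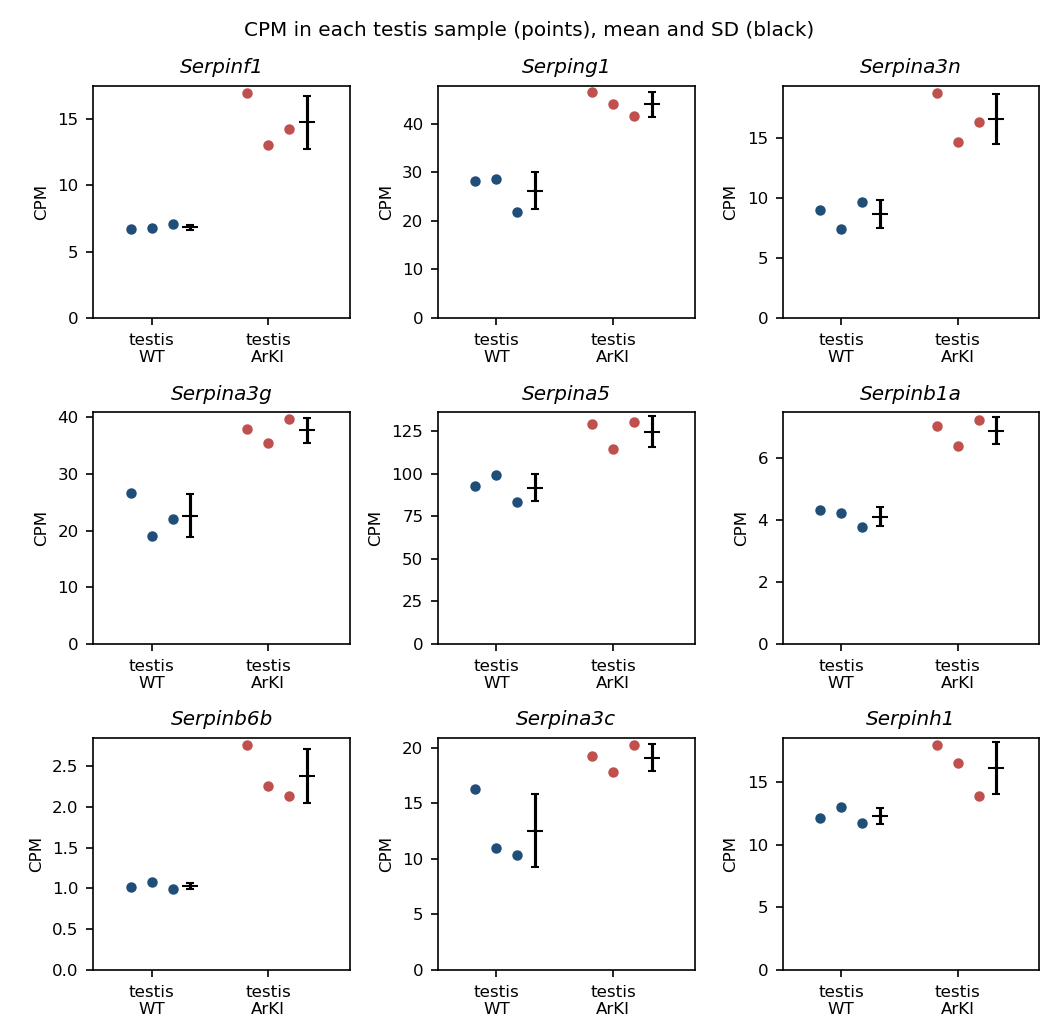
CPM of the 9 serpin genes past an adjusted p of 0.2 in every testis sample (points, WT blue and ArKI red), with the mean and SD beside them. For *Serpinf1* the ArKI samples lie at 13.0 to 17.0 CPM and the WT samples at 6.72 to 7.06, and for all 9 genes every ArKI sample is above every WT sample.

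Of the other clade B genes, inhibitors that mostly stay inside cells, none was called between genotypes in the epididymis, with 1 in the IS and 1 in the caput past the adjusted p. *Serpinb8* in the IS had 4.70 to 6.51 CPM in WT and 7.85 to 8.74 in ArKI mice and passed the adjusted p (0.58, SE 0.13, adjusted p = 0.0028). Summed markers of stratified epithelium were 12.5 to 16.7 CPM in WT IS and 20.9 to 25.4 in ArKI IS, with 1 of 2 tested genes called higher, and their part in the change was not tested. *Serpinb6b* in the caput passed as well (0.38, SE 0.10, adjusted p = 0.0063), at 14.9, 19.6, 15.4, 19.6 and 19.4 CPM in WT and 23.6, 24.9, 24.5, 20.2 and 22.8 CPM in ArKI mice. Its adjusted p ranged from 0.0044 to 0.020 without single samples and was over the threshold with all 20 samples in one fit (0.013) and with the replicate block (0.012). In the IS *Serpinb9* did not pass (0.32, adjusted p = 0.040), but did without IS ArKI replicate 3 (0.39, adjusted p = 0.0031). Its adjusted p was 0.0031 to 0.095 without single samples and 0.0033 to 0.066 over the other settings. Between the WT segments *Serpinb9*, an inhibitor of granzyme B, was higher in the caput by 0.96 (SE 0.11, adjusted p = 5.1e-08), from 28.1 to 41.3 CPM in WT IS to 60.8 to 72.03 in WT caput, and *Serpinb6b* by 0.94 (SE 0.13, adjusted p = 3.0e-07), both just under the fold limit, which they passed without IS WT replicate 1 (1.04) and caput WT replicate 1 (1.00). *Serpinb5*, maspin, was at 68 to 114 counts in WT IS and at 0 to 3 in WT testis. With no filter beyond 1 count, *Serpinb1b*, with 1 to 6 counts in WT IS and 5 to 19 in ArKI IS, was called (1.70, adjusted p = 0.0018), as was *Serpinb12*, with 0 counts in all WT and 0 to 5 in ArKI samples of the IS.

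The proteases, receptors and cofactors that serpins act on were read from a list of 66 genes. The list was chosen with earlier results of these data known, so its shares are not a test of the targets as a set. In the IS 2 of 26 tested were called, against 4.04% of all genes, of which *Proc*, protein C, was called higher (1.38, SE 0.32, adjusted p = 0.0029) and *Thbd*, thrombomodulin, lower (-1.002, SE 0.13, adjusted p = 1.8e-05). Protein C is made mainly in the liver, and summed liver markers were 0.424 to 0.845 CPM in WT IS and 3.51 to 9.71 in ArKI IS. Of these 5 markers *Ttr*, transthyretin, was the 1 tested and was called higher (4.17), from 1 to 3 counts in WT and 23 to 61 in ArKI IS, while *Alb*, albumin, had 0 or 1 count in every IS sample. *Ttr* alone stood at 3.23 to 8.71 CPM in ArKI IS, so the sum follows 1 gene. That gene passed the filter on low counts through the ArKI samples alone. The part of this in the change of *Proc* was not tested. Summed markers of endothelium, which makes thrombomodulin, were 136 to 168 CPM in WT IS and 96.5 to 112 in ArKI IS, with 5 of 5 genes past the adjusted p, all lower, and a median log2 fold change of -0.51. Their part in the change of *Thbd* was not tested. In the caput 1 of 29 was called, against 4.98% of all genes, *F2r*, the thrombin receptor, at 5.74 to 9.44 CPM in WT and 13.6 to 29.3 in ArKI mice (1.38, SE 0.20, adjusted p = 0.00024). Endothelium markers summed there to 59.8 to 64.2 CPM in WT and 68.4 to 97.3 in ArKI mice, with 2 of 5 past the adjusted p. Their part in the change of *F2r* was not tested. The gene *F2r* was also called in the testis (1.00, SE 0.18, adjusted p = 0.0022), among 5 of 39 tested, all higher, against 0.833% of all genes. The others were the kallikreins *Klk1b21*, *Klk1b22*, *Klk1b24* and *Klk1b27*, with log2 fold changes of 1.67, 2.96, 2.06 and 2.42. They are close paralogs, so their calls need not be independent. Only uniquely mapped reads were counted, so reads that they share can be missing from their levels. *Klk1b22*, for example, had 0.840 to 2.14 CPM in WT and 9.26 to 12.4 in ArKI testis. The tissue and urinary plasminogen activators, *Plat* and *Plau*, which *Serpine2* and *Serpini1* can inhibit, were called in no comparison. *Plat* had 16.5 to 23.8 CPM in WT and 21.5 to 38.0 in ArKI caput. Between the effects in the segments 4 of 30 tested genes differed, against 8.18% of all genes, as did 4 of 5 markers of endothelium, all with a higher effect in the caput. The differences were -1.61 for *Proc*, 0.81 for *Thbd*, -0.63 for *Hpn*, the protease hepsin, and 0.56 (SE 0.09, adjusted p = 8.5e-05) for *Lrp1*, a receptor that clears complexes of serpins with proteases. *Lrp1* had 118 to 137 CPM in WT IS, 85.7 to 113 in ArKI IS, 109 to 114 in WT caput and 118 to 145 in ArKI caput. In WT mice 8 of 30 differed between the segments, against 21.6% of all genes, the largest being *Klk1b5* (3.99), *Gm5077* (2.21), *Proc* (2.07), *Ctsl*, cathepsin L (1.85), and *Ctsh*, cathepsin H (-1.43), as caput against IS. *Klk1b5* had 0 to 4 counts in WT IS and 13 to 30 in WT caput. It passed the filter on low counts through the caput samples, so its value rests on few reads.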

How the data were processed

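The authors aligned reads to mm10, counted those mapped uniquely on RefSeq genes with Subread (1.5.1 per the labels, beside bcl2fastq 1.8.4) and deposited the raw counts of 23337 genes, not normalized. The paper and the labels name different library kits and the counting strand is not given in the sources used here, so reads of overlapping antisense genes cannot be set apart. Each tissue was fitted by itself in R 4.3.3 with edgeR 4.0.16 (filterByExpr, minimum count 10 and total 15; TMM; robust quasi-likelihood; Benjamini-Hochberg over all genes), and the 20 epididymal samples together for the interaction and the WT segments. SEs were computed from the fitted coefficient and the F statistic. limma 3.58.1 and DESeq2 1.42.0 were alternatives, and the fits were tested on simulated data. The log fold changes are those of edgeR. RPKM used RefSeq exon lengths, for 62 members. Depth per sample was 4125768 to 21376604 counts, and 3 counts were taken as the smallest signal. P-values measure the spread between the samples, which the labels do not tie to single animals, and the segments, which share mice, were fitted as independent. The members and all lists were chosen with earlier results of these data known. Named with values in every sample were the members called in a comparison and the 3 with most RPKM per tissue in WT, each in the tissues that named it. Other values are ranges or fold changes, save some members near a threshold that were named after their values were seen. Lists held markers of the initial segment, caput, sperm, Sertoli cells, basal cells, lymphocytes, mast cells, adipose tissue, Leydig cells, macrophages, fibroblasts, smooth muscle, endothelium, liver and stratified epithelium, and 66 serpin targets and partners. Results on certain items, which the counts of members and the sums over them include, are not reported here.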

Additional observations from a re-analysis of the deposited data

Results flagged for a closer look

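In 4 of 54 groups of 5 samples 1 sample stood apart from the rest by Dixon's test, where chance gives about 2.7. *Serpina3n* was at 50.02 CPM in caput ArKI replicate 2 and at 14.6 to 18.8 in the others. *Serpinb9* was at 54.2 CPM in the same replicate and at 71.0 to 76.8 in the others. *Serpinb5* was at 13.0 CPM in IS WT replicate 2, against 8.77 to 9.81, and at 4.43 CPM in IS ArKI replicate 3, against 8.36 to 9.84. Without caput ArKI replicate 2 the log2 fold change of *Serpina3n* in the caput was 0.45 (SE 0.11, adjusted p = 0.0032 by edgeR) in place of 0.83 (SE 0.37, adjusted p = 0.14).

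The effect of ArKI differed between caput and IS for 3 members by the interaction test, as the caput effect minus the IS effect. The difference was 1.45 for *Serpine2*, 1.09 for *Serpini1* and -0.44 for *Serpinb6a* on the log2 scale. *Serpine2* rose in both segments, and the other two had effects of opposite sign in the segments, neither of which passed by itself.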

How the results depend on the processing

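No call turned its direction under the alternatives run. The only member called in the IS, *Serpine2*, was joined by 2 others with no filter beyond 1 count and by 2 with no fold limit (3 higher each). The caput had 4 higher with no fold limit and 1 lower, *Serpinf2*, in place of 0 with DESeq2, limma on voom values, a threshold of 0.05 or one fit of all 20 samples, and leaving out single samples gave 0 to 1. The testis had 9 higher with no fold limit and 1 to 3 without single samples, where *Serpinf1* fell to 0.99 without ArKI replicate 1. For the interaction, a minimum of 10 counts in every sample gave 1 higher, a threshold of 0.05 gave 2 lower, a difference above 2-fold gave 0 lower, and single samples left out gave 1 to 2 higher and 0 to 1 lower. The minimum of 10 counts dropped *Serpini1*, with 8 counts in an IS ArKI sample, from the test. Between WT segments 0 members were higher with 10 counts in every sample, 5 with no fold limit and 1 to 2 without single samples. The 0 arose because *Serpina1f*, with as few as 5 counts in an IS sample, was then not tested. In the other settings that kept all samples it stood at 9.27 to 9.63. With the replicate number as a block the interaction had 1 higher, *Serpini1* having an adjusted p of 0.013 (1.06), and no other call changed. Both segments came from the same mice, but no source says that equal numbers mark one mouse, and deviations of same-numbered samples correlated at -0.18 to 0.20, so they were not treated as paired. Depth limits members under 10 counts, and 31 of 63 never reached that.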
